A study of Mus musculus with 18 samples.

Results

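The genes described here are 8 enzymes of the mevalonate pathway and of the cholesterol synthesis that follows it, namely Hmgcs1, Mvk, Mvd, Fdps, Fdft1, Sqle, Lss and Cyp51. They were taken by symbol, as the rows of the deposited gene table that carry these names. The table holds 34745 genes, each of the 8 symbols stands on 1 row of it, and all 8 genes passed the filter on low counts.

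Messenger RNA was sequenced from mouse bone marrow-derived macrophages (BMDMs), which grow out of bone marrow under the growth factor M-CSF, before RANKL and after 1 or 3 days with it. RANKL is the cytokine that turns such precursors into osteoclasts, the cells that resorb bone. The 6 groups of 3 libraries were cells labelled wild type (WT, Zmat1+/+) and cells labelled Zmat1 knockout (KO, Zmat1-/-), each with M-CSF alone (day 0), with M-CSF and RANKL for 1 day, and with M-CSF and RANKL for 3 days. Per the methods of the study, the knockout is global, on a C57BL/6 background, and the marrow came from mice of 4 to 8 weeks bred from heterozygous parents. Nothing states which libraries came from separate animals or whether marrow was pooled, so p-values measure only the spread between these libraries, which may be technical.

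In the mevalonate pathway acetyl-CoA is built up to HMG-CoA, which is reduced to mevalonate, phosphorylated and decarboxylated to the isoprene units from which farnesyl pyrophosphate is made. Farnesyl pyrophosphate is a branch point. It serves the prenylation of small GTPases, on which the cytoskeleton of the osteoclast depends, and it is also the substrate from which squalene, lanosterol and cholesterol are made. Fdps, the farnesyl pyrophosphate synthase, is the target of nitrogen-containing bisphosphonates, the drugs used against bone loss. Transcription of these genes is known to be driven by SREBP2 (the product of Srebf2) when sterols in the endoplasmic reticulum are low.

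Total counts per library ran from 13789775 to 17559958, and a member had between 258 and 5300 counts in a library. Zmat1 had 49 to 99 counts in the libraries labelled KO and 32 to 91 in those labelled WT, so its counts did not follow the labels. The part of the gene that was deleted is not given in the sources used here, and the groups are therefore called by their labels. The osteoclast markers (10 genes, Ctsk and Acp5 among them) summed to 224 to 1221 CPM (counts scaled to a common library size) in the 12 libraries of days 0 and 1 and to 8293 to 23381 CPM in the 6 libraries of day 3. Macrophage markers were high before RANKL (30478 to 60550 CPM summed), and markers of other cell types were present too. Stromal or osteoblast markers (10 genes) summed to 90.3 to 4551 CPM on day 0, to 10709 to 13858 CPM on day 3 in the libraries labelled WT and to 19230 to 28736 CPM on day 3 in those labelled KO. The titles of 5 libraries are written with a double hyphen, namely WT day 0 library 1, WT day 1 library 1b, KO day 0 library 2 and KO day 1 libraries 1 and 2, and no day 3 library is among them. In these 5 the 10 most abundant genes took 18 to 19.9% of the counts, against 11.8 to 15.3% in the other libraries of days 0 and 1, and what the style stands for is not given in the sources used here. A library is a mixture of cells, and more RNA per cell cannot be told apart from more cells of a type.

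All levels below are CPM after TMM scaling (a trimmed mean that corrects for library composition), and folds are on the log2 scale with standard errors (SE) and adjusted p-values from edgeR's quasi-likelihood test over 14241 genes. Libraries are listed in the order 1, 2 and 3, and on WT day 1 in the order 1, 1b and 2, since 2 of its libraries carry the number 1.

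Between day 0 and day 3 of RANKL, 6 of the 8 genes rose in the libraries labelled WT and all 8 rose in those labelled KO. At an adjusted p under 0.05, 23.7% of all genes tested were higher on day 3 in the libraries labelled WT and 20.2% in those labelled KO. The median log2 fold change of the members was 0.83 in the libraries labelled WT, where the median of all genes was -0.03. For KO the medians were 1.51 for the members and -0.01 for all genes. All day 3 libraries lay above all day 0 libraries in 7 of the 8 genes labelled WT (31.5% of all genes) and in 8 labelled KO (29.4%). None of the 8 fell in either label. In the libraries with single-hyphen titles alone, 7 (WT) and 8 (KO) were called higher. The levels of all 8 summed to 398 ± 83.2 CPM on day 0, 630 ± 67.1 CPM on day 1 and 704 ± 25.4 CPM on day 3 in the libraries labelled WT (mean ± SD, n = 3). For KO the sums were 375 ± 79.9, 788 ± 55.6 and 1003 ± 133 CPM (mean ± SD, n = 3).

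Promoter sequence was at hand for 5 of the 8 genes, namely Hmgcs1, Mvk, Mvd, Lss and Cyp51 (RefSeq, GRCm38.p6, from 250 bases before to 50 bases after the start), and not for Fdps, Fdft1 and Sqle. The start of Hmgcs1 in RefSeq lies upstream of its start in the gene table. The end of its window was not found in a GENCODE M21 transcript of the gene, whereas those of Mvk, Mvd, Lss and Cyp51 were. The letters TCACNCCAC of a sterol regulatory element, on either strand, occurred in 1 of the 5, Hmgcs1, where 1.24% of 32851 promoters held them. CCAAT, the box bound by NF-Y, occurred on either strand in all 5 (37.4% of all promoters), and the GC box GGGCGG in all 5 (35.7%). The 250 bases before the start are printed for Hmgcs1, which holds the only match to TCACNCCAC among the 5, for Mvk and for Lss. Mvk changed least by day 3 and Lss changed most. Counted over the whole window, CCAAT boxes numbered 5 in Mvk, 4 in Hmgcs1, 2 in Mvd, 1 in Lss and 1 in Cyp51. A relation of these counts to the fold changes was not tested. Capitals mark the match to the sterol element (TCACCCCAC) and each CCAAT box, which reads ATTGG where it is on the other strand.
Hmgcs1, chr13:119690101-119690350, plus strand: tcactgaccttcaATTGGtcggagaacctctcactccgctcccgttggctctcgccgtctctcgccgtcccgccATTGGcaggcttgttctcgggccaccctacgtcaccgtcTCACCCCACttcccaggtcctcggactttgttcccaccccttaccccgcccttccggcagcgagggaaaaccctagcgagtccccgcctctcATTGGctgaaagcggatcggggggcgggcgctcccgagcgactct
Mvk, chr5:114444019-114444268, plus strand: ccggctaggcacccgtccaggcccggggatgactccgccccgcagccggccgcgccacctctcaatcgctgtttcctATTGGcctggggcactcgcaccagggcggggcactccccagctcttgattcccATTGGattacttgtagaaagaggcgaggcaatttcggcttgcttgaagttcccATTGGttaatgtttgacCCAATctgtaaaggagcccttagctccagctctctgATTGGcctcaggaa
Lss, chr10:76531355-76531604, plus strand: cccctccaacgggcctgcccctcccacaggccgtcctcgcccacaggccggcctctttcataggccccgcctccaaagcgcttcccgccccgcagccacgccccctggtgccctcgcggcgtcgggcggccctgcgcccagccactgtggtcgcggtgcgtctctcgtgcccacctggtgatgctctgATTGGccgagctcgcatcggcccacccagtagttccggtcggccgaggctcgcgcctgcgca
These letters are a match in the window only, and bases before or after it were not searched. Sterol elements with other letters were not searched either, so the search does not show that a promoter lacks such an element.

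**Figure D1:**
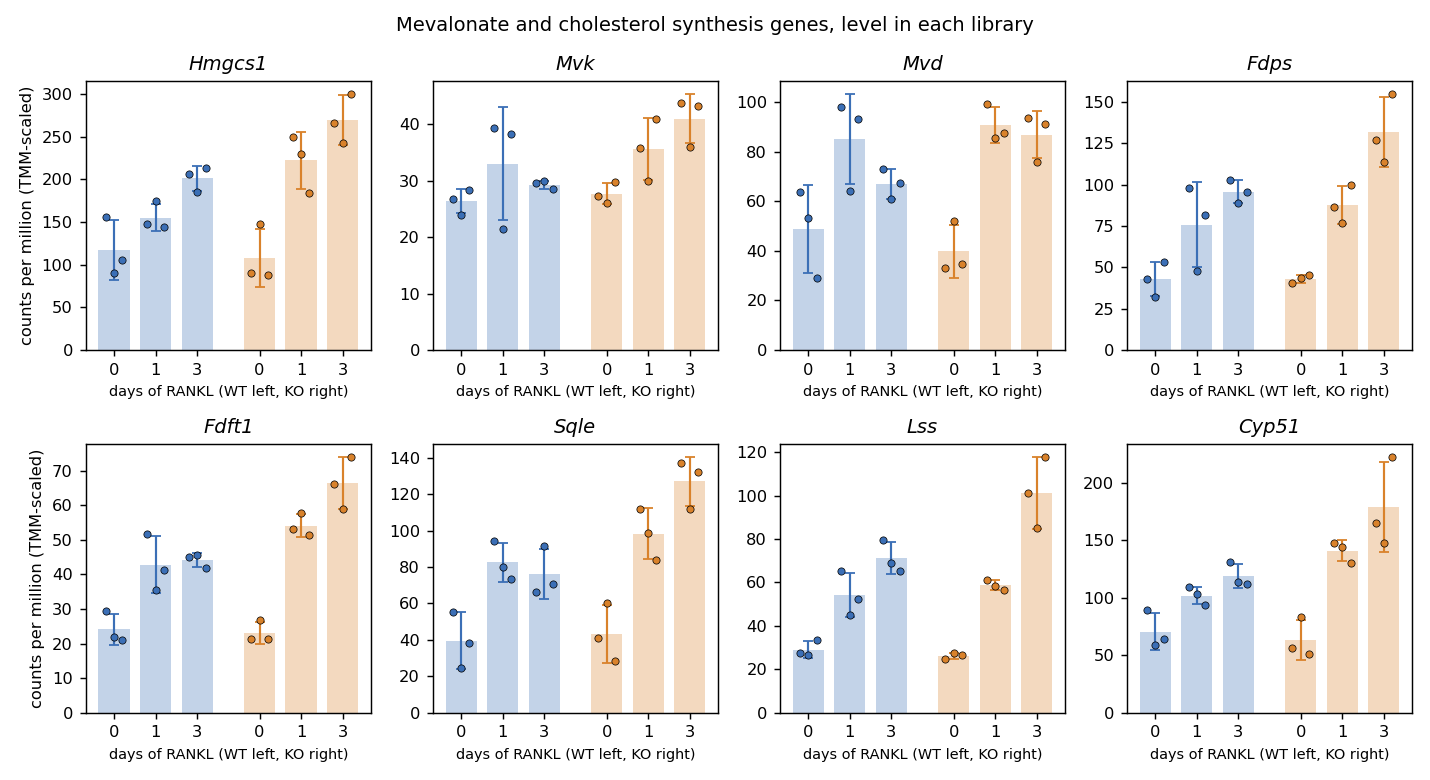
Level of each of the 8 genes in TMM-scaled CPM (y axis, from 0) by days of RANKL (x axis), with libraries labelled WT in blue and KO in orange. Points are libraries, bars are means and error bars SD (n = 3), and the day 3 libraries labelled KO lie above the day 3 libraries labelled WT in all 8 panels.

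The first of the 8 members in the pathway is Hmgcs1 (chr13:119690462-119708086, plus strand, GRCm38), the cytosolic HMG-CoA synthase. In the libraries labelled WT, Hmgcs1 stood at 156, 89.9 and 105 CPM on day 0, at 147, 174 and 144 CPM on day 1 and at 206, 185 and 213 CPM on day 3. In those labelled KO it stood at 90.2, 148 and 87.4 CPM on day 0, at 250, 230 and 184 CPM on day 1 and at 266, 242 and 300 CPM on day 3. All day 3 libraries lay above all day 0 libraries of their label, and WT day 0 library 1 reached the range of WT day 1. The log2 fold change from day 0 to day 3 was 0.78 (SE 0.220, adjusted p = 0.00900) in the libraries labelled WT and 1.31 (SE 0.222, adjusted p = 0.000481) in those labelled KO.

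Mvk (chr5:114444269-114460591, plus strand), the mevalonate kinase that adds the first phosphate, changed least by day 3. The libraries labelled WT had 26.8, 24.0 and 28.3 CPM on day 0, 39.4, 21.5 and 38.2 CPM on day 1 and 29.6, 29.9 and 28.5 CPM on day 3. The KO libraries had 27.2, 26.1 and 29.7 CPM, then 35.8, 30.0 and 41.0 CPM, then 43.8, 36.0 and 43.3 CPM. The day 3 libraries labelled WT sat just above their day 0 libraries, with a log2 fold change of 0.15 (SE 0.186, adjusted p = 0.503) and a 95% interval from -0.24 to 0.55. Mvk rose by day 3 in the libraries labelled KO, with a log2 fold change of 0.57 (SE 0.186, adjusted p = 0.0247), and the call was lost on leaving out any of 4 libraries, numbers 1 and 2 of KO day 0 and numbers 1 and 3 of KO day 3 (log2 fold changes then 0.52 to 0.58).

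For Mvd (chr8:122433596-122443422, minus strand), the decarboxylase that makes isopentenyl pyrophosphate, the highest group mean was on day 1 in both labels. Libraries labelled WT held 63.8, 53.2 and 29.2 CPM on day 0, 98.0, 64.3 and 93.0 CPM on day 1 and 73.0, 60.7 and 67.2 CPM on day 3. Libraries labelled KO held 33.0, 52.2 and 34.5 CPM, then 99.1, 85.3 and 87.6 CPM, then 93.5, 76.0 and 91.3 CPM. The day 0 and day 3 libraries labelled WT overlapped, because WT day 0 library 1 lay above WT day 3 library 2. The day 3 fold change was 0.46 on the log2 scale (SE 0.246, adjusted p = 0.130, 95% interval -0.07 to 0.98) in the libraries labelled WT and 1.12 (SE 0.248, adjusted p = 0.00279) in those labelled KO.

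Fdps makes farnesyl pyrophosphate. It stood at 43.0, 32.3 and 53.1 CPM on day 0, at 98.0, 47.6 and 81.7 CPM on day 1 and at 103, 89.2 and 95.4 CPM on day 3 in the libraries labelled WT. Labelled KO it went from 40.6, 43.7 and 45.1 CPM on day 0 through 86.5, 77.1 and 100 CPM on day 1 to 127, 114 and 155 CPM on day 3. Groups of the same day overlapped between the labels on days 0 and 1 and did not on day 3, and WT day 1 library 1b, at 47.6 CPM, lay within the range of WT day 0. From day 0 to day 3 Fdps rose by a log2 fold change of 1.16 (SE 0.227, adjusted p = 0.000838) in the libraries labelled WT and of 1.62 (SE 0.229, adjusted p = 0.000142) in those labelled KO.

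In order of mean level, the groups ran for Fdps from WT day 0 (42.8 CPM) and KO day 0 (43.1 CPM) over WT day 1 (75.8 CPM), KO day 1 (87.9 CPM) and WT day 3 (95.8 CPM) to KO day 3 (132 CPM). Of the 5 steps between neighbours in this order, only those from KO day 0 to WT day 1 and from WT day 3 to KO day 3 joined groups whose libraries did not overlap. Fdps lies at chr3:89093588-89101959 on the minus strand (GRCm38). There it overlaps Gm43738, a predicted gene on the same strand that had 18 to 223 counts a library, so that reads of both genes cannot be told apart everywhere. Gm43738 was called higher on day 3 too, with log2 fold changes of 1.36 (WT, adjusted p = 0.00132) and 2.82 (KO, adjusted p = 2.41e-05), and its interaction of label with RANKL was 1.46 (unadjusted p = 0.00249 and adjusted p = 0.910 by edgeR). Its part in the counts of Fdps was not tested.

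Fdft1 (chr14:63145153-63177793, minus strand), the squalene synthase, commits farnesyl pyrophosphate to sterols. Levels labelled WT started at 29.3, 21.8 and 21.0 CPM on day 0 and reached 51.8, 35.4 and 41.2 CPM on day 1 and 45.0, 45.7 and 42.0 CPM on day 3. The levels labelled KO were 21.2, 26.8 and 21.4 CPM, then 53.0, 57.9 and 51.4 CPM, then 66.2, 59.0 and 74.1 CPM. In each label every library with RANKL lay above every library without it. The day 3 fold change was 0.88 on the log2 scale (SE 0.160, adjusted p = 0.000514) in the libraries labelled WT and 1.52 (SE 0.161, adjusted p = 2.41e-05) in those labelled KO. The last 774 bases of Fdft1 overlap Ctsb on the other strand (GENCODE M21), and whether the counting used strand is not given in the sources used here. Ctsb, the abundant lysosomal protease cathepsin B, had 65219 to 363383 counts a library. Its log2 fold changes over the same 3 days were -2.19 (WT) and -1.96 (KO). The part of Ctsb in the counts of Fdft1 was not tested.

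Sqle (chr15:59315077-59331192, plus strand), the squalene epoxidase, catalyses the first oxygenation of the sterol branch. Libraries labelled WT held 55.5, 24.5 and 38.5 CPM on day 0, 94.2, 79.9 and 73.6 CPM on day 1 and 66.1, 91.7 and 70.9 CPM on day 3. Libraries labelled KO held 40.9, 60.1 and 28.6 CPM, then 112, 98.7 and 84.0 CPM, then 137, 112 and 132 CPM. Its spread on day 0 was the widest of the 8 genes relative to its mean in both labels, and no library with RANKL fell into the day 0 range of its label. Sqle rose by day 3 with a log2 fold change of 0.95 (SE 0.277, adjusted p = 0.0112) in the libraries labelled WT and of 1.55 (SE 0.280, adjusted p = 0.000737) in those labelled KO.

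Lss (chr10:76531588-76557138, plus strand), the lanosterol synthase that closes the sterol rings, had the largest fold change of the 8 genes in both labels. It stood at 27.5, 26.4 and 33.5 CPM on day 0, at 65.3, 45.1 and 52.3 CPM on day 1 and at 79.4, 69.1 and 65.4 CPM on day 3 in the libraries labelled WT. The KO libraries stood at 24.7, 27.4 and 26.6 CPM, then at 61.2, 58.5 and 56.6 CPM, then at 101, 85.0 and 118 CPM. The 3 days did not overlap within either label. From day 0 to day 3 the log2 fold change of Lss was 1.29 (SE 0.151, adjusted p = 2.18e-05) in the libraries labelled WT, a 2.45-fold rise, and 1.95 (SE 0.153, adjusted p = 4.78e-06) in those labelled KO, a 3.86-fold rise.

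Cyp51 (chr5:4081145-4104746, minus strand), the cytochrome P450 that removes a methyl group from lanosterol, moved much like Hmgcs1. The WT libraries stood at 89.0, 58.8 and 63.9 CPM on day 0, at 109, 103 and 94.1 CPM on day 1 and at 131, 114 and 112 CPM on day 3. The KO libraries stood at 56.1, 83.1 and 51.0 CPM, then 148, 144 and 130 CPM, then 165, 148 and 223 CPM. The 3 days did not overlap in either label, though the highest KO day 1 library and the lowest KO day 3 library both round to 148 CPM. WT day 0 library 1 and KO day 0 library 2, which are the day 0 libraries with double-hyphen titles, were the highest of their groups in Cyp51, as they were in Hmgcs1, Mvd, Fdft1 and Sqle. The day 3 fold change was 0.76 on the log2 scale (SE 0.197, adjusted p = 0.00583) in the libraries labelled WT and 1.49 (SE 0.200, adjusted p = 0.000100) in those labelled KO. Cyp51 overlaps Akap9 on the other strand by 166 bases, and Akap9 had 412 to 1238 counts a library. The day 3 log2 fold changes of Akap9 were 0.26 (WT, adjusted p = 0.264) and 0.56 (KO, adjusted p = 0.0301). The part of Akap9 in the counts of Cyp51 was not tested.

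After 1 day of RANKL 2 of the 8 genes, Fdft1 and Lss, were called higher in each label. From day 0 to day 1 all 8 fold changes were positive in both labels, with medians of 0.82 (WT) and 1.16 (KO) on the log2 scale beside 0.00 for all genes in each label. The number called moved with the setting, from 0 in both labels when only the groups compared were fitted, or with a replicate block within label, to 5 (WT) and 7 (KO) by the DESeq2 Wald test. In the libraries with single-hyphen titles it was 8 (WT). For KO these titles leave 1 library on day 1, so no count is given. With the replicate number as a block the number called was 0 (WT) and 2 (KO). In the libraries labelled WT, 1.44% of all genes were called higher on day 1, and the log2 fold changes were 0.83 (SE 0.160, adjusted p = 0.0342) for Fdft1 and 0.90 (SE 0.150, adjusted p = 0.0342) for Lss. For KO, 0.0211% of all genes were called higher on day 1. These were 3 genes of 14241, namely Fdft1 (log2 fold change 1.22, SE 0.161, adjusted p = 0.0127), Lss (1.17, SE 0.151, adjusted p = 0.0127) and Dusp18 (1.23, SE 0.172, adjusted p = 0.0182), a phosphatase gene named here after its values were seen.

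**Figure D2:**
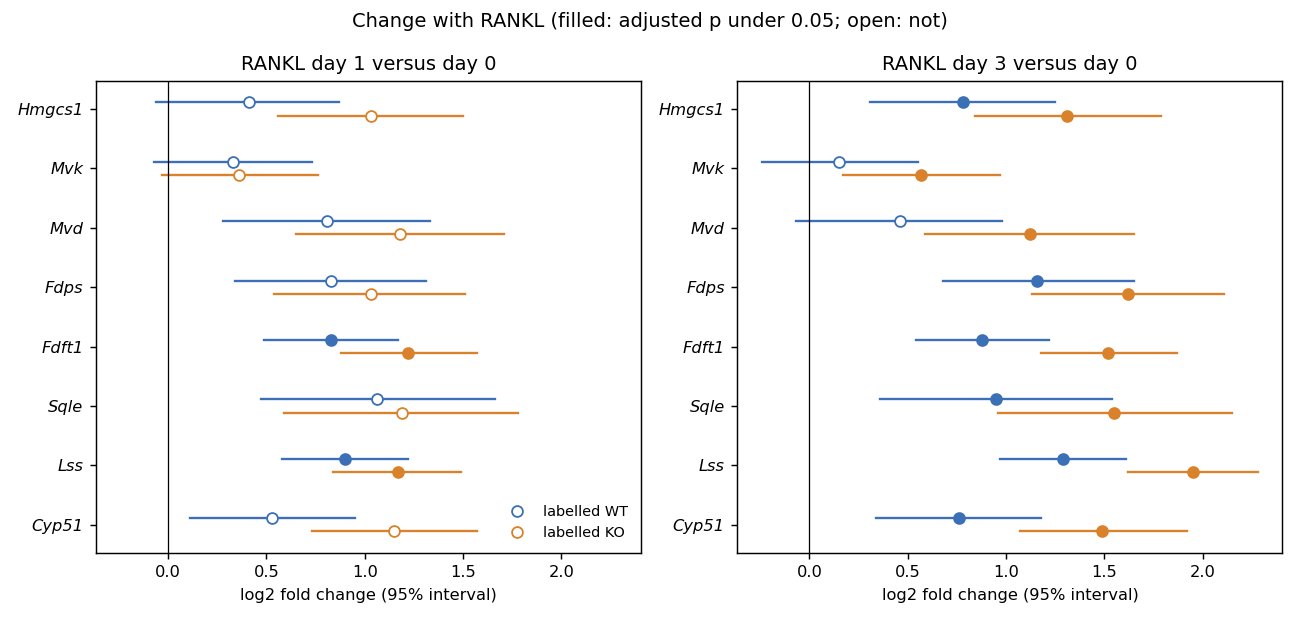
Log2 fold change from day 0 to day 1 (left) and to day 3 (right) of RANKL for the 8 genes, with 95% intervals, in libraries labelled WT (blue) and KO (orange). Filled points passed an adjusted p under 0.05, which was 2 of 8 genes on day 1 in each label and 6 (WT) and 8 (KO) on day 3.

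In 5 genes all day 1 libraries labelled WT lay above all day 0 libraries, against 8.46% of all genes. For KO this held for all 8 genes, against 8.55% of all genes. For Mvd, Sqle, Hmgcs1, Fdps and Cyp51 the day 1 fold changes labelled KO were 1.03 to 1.19 on the log2 scale with adjusted p from 0.110 to 0.170. Leaving out 1 library changed the day 1 calls. For WT, 6 genes were called without WT day 1 library 1b and none without WT day 0 library 2, WT day 1 library 1 or WT day 1 library 2. For KO, 4 were called without KO day 0 library 2, and none when either of the other two day 0 libraries, or day 1 library 1 or 2, was left out.

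Between day 1 and day 3 the number of members called was near what the share of all genes would give for 8 genes. In the libraries labelled WT, 12.7% of all genes were called higher on day 3 than on day 1, and none of the 8 was called (log2 fold changes -0.35 to 0.39), 1 of them having an unadjusted p under 0.05 and between 0 and 3 being called under the other settings and tools. In those labelled KO the share of all genes was 12.5%, and Lss alone was called, with a log2 fold change of 0.79 (SE 0.148, adjusted p = 0.00178). Fdps came next with 0.59 (SE 0.223, adjusted p = 0.0612). Up to 6 members were called labelled KO under the other settings and tools. All day 3 libraries lay above all day 1 libraries in 3 genes labelled WT (Hmgcs1, Lss and Cyp51, against 23.8% of all genes) and in 4 labelled KO (Fdps, Fdft1, Lss and Cyp51, against 25.6%). Over the same step 9 of the 10 osteoclast markers were called higher in both labels, with median log2 fold changes of 5.26 (WT) and 5.71 (KO).

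On day 3 all 3 libraries labelled KO lay above all 3 labelled WT in each of the 8 genes, against 15.9% of all genes tested. The count was 8 also with DESeq2 size factors, with total counts and in the deposited FPKM, scalings added after the data were seen. The log2 differences (KO minus WT) ran from 0.38 for Mvd to 0.74 for Sqle, with a median of 0.50 beside 0.02 for all genes. None passed the test across all genes, where 0.0843% of genes were called higher in the libraries labelled KO. The smallest adjusted p was 0.235 for Fdft1 (log2 difference 0.59, 95% interval 0.25 to 0.92), followed by 0.253 for Lss (0.51, interval 0.19 to 0.82). By edgeR 5 of the 8 had an unadjusted p under 0.05, and the DESeq2 Wald test called 1, Fdft1.

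**Figure D3:**
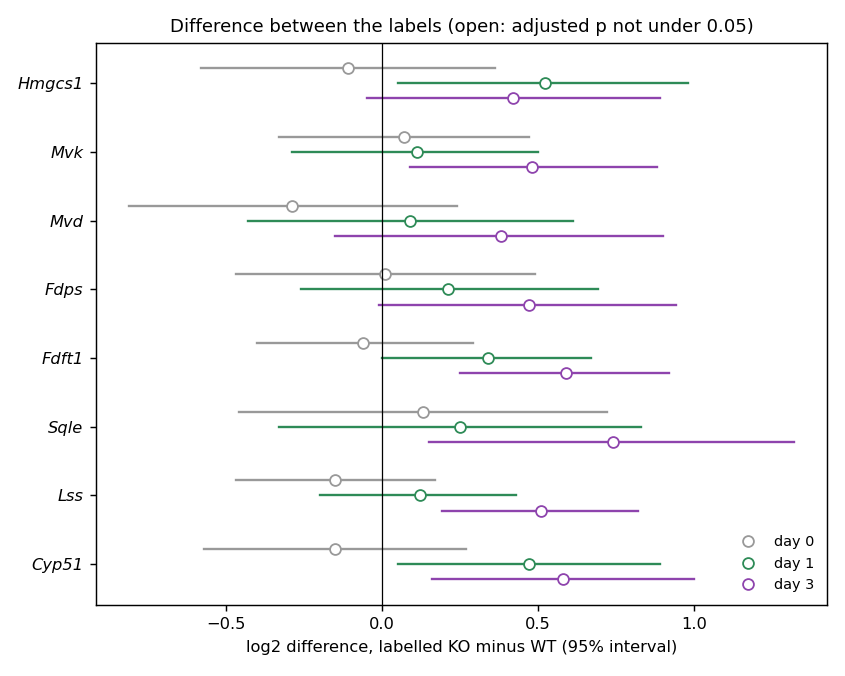
Log2 difference between libraries labelled KO and WT (x axis, KO minus WT, with 95% interval) for the 8 genes on day 0 (grey), day 1 (green) and day 3 (purple) of RANKL. All points are open, since none passed an adjusted p under 0.05, and the day 3 points lie between 0.38 and 0.74.

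Before RANKL the libraries of the labels overlapped in every member, where 4.90% of all genes had all libraries labelled KO on top. On day 0, 3 of the 8 differences were positive, the range was -0.29 to 0.13 and the median -0.08 and no member had an unadjusted p under 0.05. For Fdps the log2 difference between the labels went from 0.01 on day 0 over 0.21 to 0.47 on day 3. The interval of the day 0 difference ran from -0.47 to 0.49 for Fdps and from -0.47 to 0.17 for Lss. On day 0, 0.0632% of all genes were called higher in the libraries labelled KO, and none of the members was, by edgeR or DESeq2. On day 1 the differences were 0.09 to 0.52, Hmgcs1 (0.52, adjusted p = 0.605) and Cyp51 (0.47, adjusted p = 0.598) had libraries that did not overlap, as 6.83% of all genes did, and none was called by edgeR or DESeq2 while 0.0632% of all genes were called higher. Averaged over the 3 days, the 8 differences ran from 0.06 to 0.37, with none called beside 1.14% of all genes, 4 at an unadjusted p under 0.05 and 1 called by DESeq2.

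Whether the rise with RANKL itself differed between the labels was tested as an interaction. From day 0 to day 3 the fitted fold change was larger in the libraries labelled KO for all 8 genes, by 0.41 to 0.74 on the log2 scale, with a median of 0.62 beside 0.02 for all genes. No gene of the 14241 passed this test, which makes the share called 0%, and the adjusted p of the members ran from 0.910 to 0.926, with 3 of them at an unadjusted p under 0.05 and none called by DESeq2. Lss had an interaction of 0.66 (95% interval 0.21 to 1.11) and Cyp51 of 0.74 (interval 0.14 to 1.33). For day 1 the interaction ran from 0.04 to 0.62, again with 0% of genes called, 1 member at an unadjusted p under 0.05 and none called by DESeq2. The comparisons of day 1 and of day 3 with day 0 share the day 0 libraries of their label, so the values of day 1 and day 3 are not independent of each other.

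Markers of other cells also differed between the labels. The neutrophil markers did so before RANKL, where the members overlapped, with 662 to 3012 CPM on WT day 0 and 3650 to 11714 CPM on KO day 0. On day 3 these 8 genes summed to 35.8 to 66.9 CPM in the libraries labelled WT and to 97.6 to 1147 CPM in those labelled KO, and the osteoclast markers to 16039 to 23381 CPM and 8293 to 17734 CPM. With the stromal or osteoblast sums given above, the libraries labelled KO held more stromal and neutrophil marker RNA, and all 10 osteoclast markers had negative log2 differences (-0.69 to -0.19). No marker of these 3 lists was at 0 in every library. The summed stromal markers were also higher, and the summed neutrophil markers lower, on day 3 than on day 0 in both labels. The part of these cells in the levels of the members was not tested.

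Among the other genes of the pathway fewer were called in the libraries labelled WT than in those labelled KO. Of 13 further cholesterol synthesis genes, 6 were called higher and none lower on day 3 in the libraries labelled WT (median log2 fold change 0.48), and 10 were called higher and 1 lower in those labelled KO (median 1.07). The largest rises in the libraries labelled WT were in Hsd17b7 (1.48, SE 0.366, adjusted p = 0.00436), a sterol ketoreductase, Acat2 (1.27, SE 0.302, adjusted p = 0.00324), the thiolase at the head of the pathway, and Nsdhl (0.97, SE 0.185, adjusted p = 0.000702), a sterol dehydrogenase. Their changes labelled KO were 2.02, 2.10 and 1.32. The exception among the calls was Lbr, a sterol reductase that is also the lamin B receptor of the nuclear envelope, with -1.14 (adjusted p = 0.00476) labelled KO and -0.68 (adjusted p = 0.0520) labelled WT, named after its values were seen.

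Among 7 genes of sterol sensing and SREBP activation, 3 were called higher and 1 lower in the libraries labelled WT, and 4 higher in those labelled KO. Srebf2, the transcription factor gene of the pathway, rose by 0.38 (SE 0.112, adjusted p = 0.0121) labelled WT and 0.59 (SE 0.112, adjusted p = 0.00105) labelled KO. Srebf1, which encodes the related factor of fatty acid synthesis, rose by 0.65 and 0.80, and Mbtps1, the protease that starts the release of SREBPs, by 0.45 and 0.65. Scap, the escort protein of the SREBPs, was called lower in the WT libraries (-0.31, adjusted p = 0.0302) and stood at -0.26 (adjusted p = 0.0691) in those labelled KO, and its direction turned with scaling by total counts (0.05 and 0.03).

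Genes of the isoprenoid branch outside the sterols and of protein prenylation did not move in a common direction. Of 13 genes of the isoprenoid branch and of prenylation, 3 were called higher and 2 lower on day 3 labelled WT, with a median of -0.06, and 2 higher and 1 lower labelled KO, with a median of -0.03. Of all genes, 23.7% were called higher and 26.5% lower labelled WT, and 20.2% higher and 22.3% lower labelled KO, and the counts of the other lists stand beside the same shares. Higher in the libraries labelled WT were Pdss1 (1.65, adjusted p = 0.00267), a synthase of the coenzyme Q side chain, Nus1 (0.81, adjusted p = 0.00171), a subunit of the dolichol-making enzyme, and Rabggtb (0.66, adjusted p = 0.000863), the beta subunit of the Rab geranylgeranyl transferase. Its alpha subunit gene Rabggta was lower (-0.77, adjusted p = 0.000381), as was Pggt1b (-0.45, adjusted p = 0.0256), a subunit of another protein prenyltransferase, whose call was lost in 9 of 19 alternatives (-0.09, adjusted p = 0.738, with total counts). Ggps1, which turns farnesyl into geranylgeranyl pyrophosphate directly after Fdps, had -0.23 (adjusted p = 0.386) and -0.03 (adjusted p = 0.931), and both signs turned with scaling by total counts (0.14 and 0.26).

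Fatty acid synthesis, the other lipid pathway tied to SREBPs, rose throughout. All 7 of its genes were called higher on day 3 in both labels, with medians of 1.40 (WT) and 1.76 (KO). The largest changes were in the desaturase genes Scd2 (2.92 and 3.11) and Scd1 (2.51 and 3.06) and in Me1 (1.67 and 1.85), the malic enzyme that makes NADPH.

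**Figure D4:**
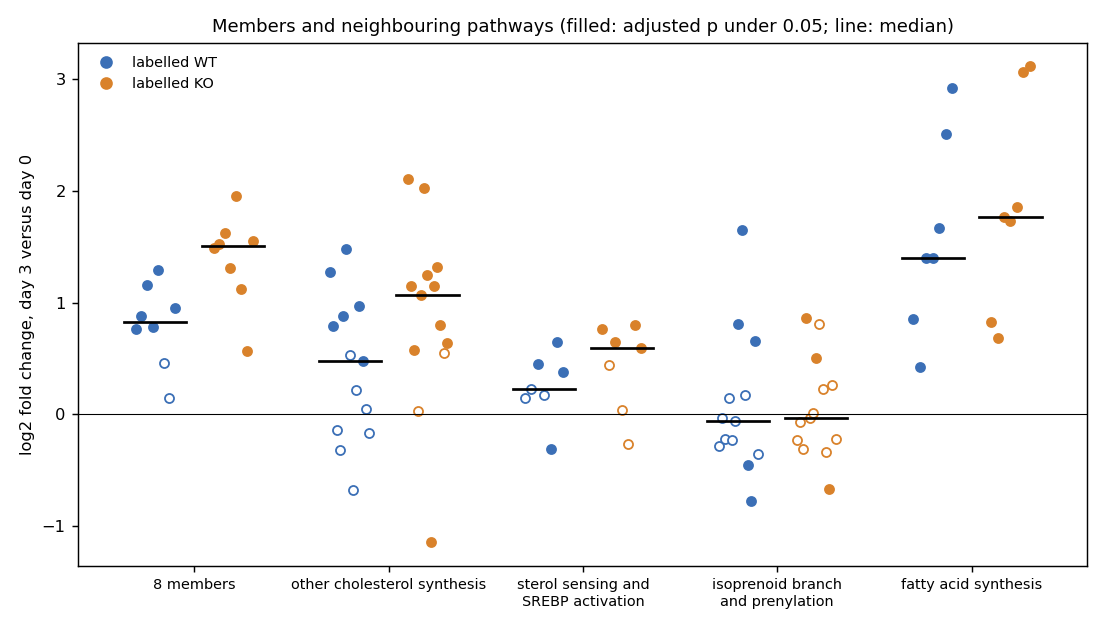
Log2 fold change from day 0 to day 3 of RANKL (y axis) of the 8 genes and of the genes of 4 neighbouring lists, in libraries labelled WT (blue) and KO (orange). Each point is a gene, filled where the adjusted p was under 0.05, and the lines are medians, which were 0.83 and 1.51 for the 8 genes and -0.06 and -0.03 for the isoprenoid branch.

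Over the 18 libraries the 8 genes varied together, as far as libraries that share groups can show. Pearson's r of log2 CPM over the 28 pairs ran from 0.523 to 0.975, and it is given as a description, since the 18 libraries fall into 6 groups that share day and label. Hmgcs1 and Cyp51 were the closest pair (0.975), then Fdft1 and Cyp51 (0.966) and Fdps and Lss (0.964). Mvk was the least like the rest, with values of 0.523 (with Hmgcs1) to 0.815 (with Fdps). Outside the lists, the genes whose log2 CPM was most like the mean of the 8 were Stard4 (0.954), Aacs (0.953), Zfp275 (0.919), 0610007P14Rik (0.905) and Foxk2 (0.894). For Fdps alone they were Fads2 (0.978), Tnfrsf22 (0.965), Npm3-ps1 (0.942), 0610007P14Rik (0.942) and Tmem97 (0.937). Of the listed genes, Srebf2 had 0.946 with the mean of the 8 and Ggps1 had -0.173.

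**Figure D5:**
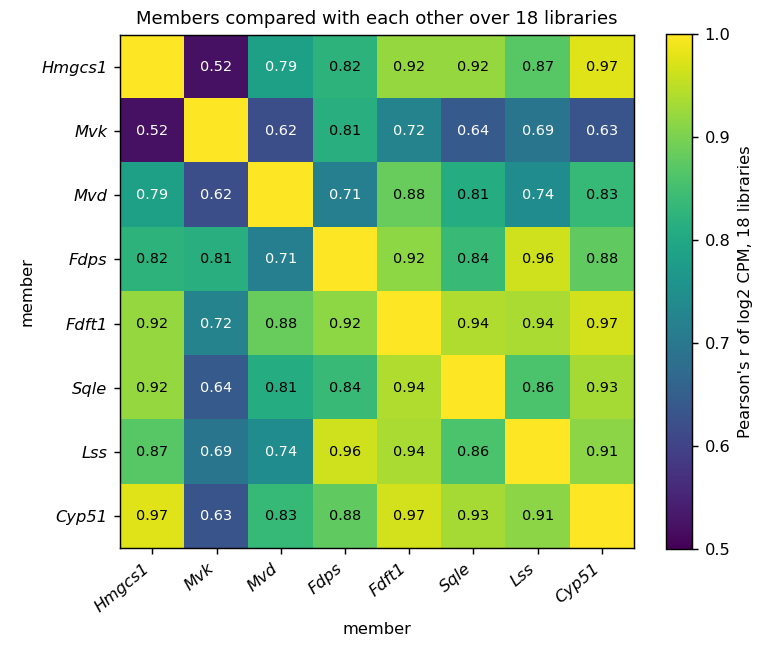
Pearson's r of log2 CPM over the 18 libraries for each pair of the 8 genes, on a colour scale from 0.5 to 1. Hmgcs1 and Cyp51 are the closest pair (0.975) and Hmgcs1 and Mvk the least close (0.523).

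The order of the 8 genes by level depends on the length each is divided by. In the deposited FPKM, Hmgcs1 was highest on day 3 in the libraries labelled WT (73.1 ± 7.02, SD, n = 3) and Lss lowest (4.53 ± 0.440, SD, n = 3), with Fdps in place 4 (19.8 ± 1.63, SD, n = 3). The FPKM correspond to a length of 5691 bases for Fdps and 18461 bases for Lss, whereas their longest coding transcripts in GENCODE M21 have 1382 and 4667 bases. Per kilobase of the longest coding transcript, an alternative added after the data were seen, Fdps was first (69.3 ± 4.95 CPM per kilobase, SD, n = 3) before Hmgcs1 (58.1 ± 4.26, SD, n = 3), and Fdft1 was last (12.0 ± 0.525, SD, n = 3).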

How the data were processed

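Messenger RNA of 18 libraries (6 groups of 3) was sequenced, and the authors deposited 1 gene table with read counts and FPKM per library. Per the labels, StringTie and GRCm38.p4 (mm10) were named in the submitters' processing notes, while strand and the gene lengths behind the FPKM are not given in the sources used here. For all 11174 genes with at least 10 counts in every library, the deposited FPKM equalled the count over the library total over 1 length per gene (to within 0.0001 as a share), so the FPKM hold nothing beyond the counts.

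Genes were kept with edgeR's filterByExpr (14241 of 34745, 13394 being at 0 in every library), scaled by TMM and fitted over all 18 libraries with edgeR's quasi-likelihood test, 1 mean per group (R 4.3.3, edgeR 4.0.16). The Benjamini-Hochberg adjustment ran over all genes of a comparison, with a threshold of 0.05. Intervals are 95% intervals of the fitted log2 fold change, and log2 CPM used a prior count of 2. Alternatives were DESeq2 1.42.0, limma 3.58.1 on log2 FPKM (pseudocounts 1 and 0.1), other scalings and filters, blocks and leaving out each library.

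Replicate numbers were checked for pairing by the correlation of deviations from group means. In the libraries labelled KO same-numbered libraries correlated by 0.130 to 0.398 between days 0 and 3 and by 0.156 to 0.340 between days 1 and 3, all above 0.1, and these were treated as paired in an alternative fit. Between days 0 and 1 they were 0.054, 0.501 and 0.598, of which the first is under 0.1. In those labelled WT the values were -0.023 to 0.111 between days 0 and 3. Between days 0 and 1 labelled WT they were -0.464, 0.604 and 0.138, the first 2 being the libraries numbered 1 of day 1. The value of 0.604 joined libraries that both have double-hyphen titles, and that of -0.464 joined libraries of unlike title style. The part of title style in these correlations was not tested. No libraries were duplicates (chi-square per degree of freedom of 18.4 or more within groups).

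The members and gene lists were chosen with earlier results of these data known. The text names all 8 members, up to 3 genes a list in each direction with the largest change among those called on day 3 labelled WT, Srebf2 and Ggps1 in any case, and the 5 genes most like the members by Pearson's r. Other genes are marked where they were chosen after their values were seen. Promoters came from RefSeq (GRCm38.p6) and overlapping genes and transcript lengths from GENCODE M21. Overlapping genes are counted without a stated rule. Mvd also overlaps Gm20388 and Lss overlaps 4930483K19Rik, each with 0 counts in every library. Hmgcs1 overlaps Gm48342, which is not in the gene table. Counts per library of 13789775 to 17559958 left each member with at least 258 counts.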

Additional observations from a re-analysis of the deposited data

How the results depend on the processing

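The directions of the members were stable in the comparisons where single members were followed. These were day 1 and day 3 against day 0, the labels on day 3, and the interaction for day 3. In 944 refits of a member's fold change there, 867 kept their side of the threshold, 31 lost it, 46 gained it and 0 turned. The 944 include the day 1 fits labelled KO in the single-hyphen libraries, where day 1 has 1 library. Directions of single members were not followed in the other comparisons. For the label on day 0 the median of the members was -0.08 and ran from -0.18 to 0.07 with 1 library left out. Members called ran from 6 to 7 of 8 for day 3 against day 0 labelled WT and from 7 to 8 labelled KO, and stayed at 0 for the label on days 0 and 1 and for both interactions. Day 1 and the step from day 1 to day 3 did depend on the setting, and the cause was not tested. For day 1 against day 0 labelled WT, 2 members were called, and the count was 5 by the DESeq2 Wald test, 0 with only the groups compared, 6 with the hyphen style of the library titles as a covariate, 8 in the libraries with single-hyphen titles and 0 to 6 with 1 library left out. Labelled KO, 2 were called, and the count was 4 with total counts, 7 by DESeq2 and 0 with only the groups compared. It was 4 with title style, 4 with log2(FPKM + 0.1) and 0 to 4 with 1 library left out. Single-hyphen titles leave 1 library on KO day 1, so counts labelled KO that use day 1 are left out for them. For day 3 against day 1 labelled WT, where 0 were called, it was 3 with total counts or FPKM at either pseudocount, 1 with the stricter filter (5 CPM in 3 libraries), DESeq2 size factors, the Wald test, title style, single-hyphen titles or the libraries numbered 1 summed, and 0 to 1 with 1 library left out. Labelled KO, where 1 was called, it was 2 with the stricter filter, the Wald test, only the groups compared or the summed libraries. It was 5 with total counts, 3 with title style, 6 and 5 with log2(FPKM + 1) and log2(FPKM + 0.1), and 1 to 2 with 1 library left out. The DESeq2 Wald test called 1 member for the label on day 3 and 1 for its average over days.

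With the replicate number as a block, the day 1 count went to 0 labelled WT, and with a block within each label to 0 in both labels. Between days 3 and 0 and days 3 and 1 labelled KO, same-numbered libraries were treated as paired. There the block left the counts at 8 and 1 and changed no other call of a member.

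Total-count scaling put the median log2 fold change of all genes from day 0 to day 3 at 0.33 (WT) and 0.29 (KO), above the medians with TMM given earlier. It turned Scap labelled WT from -0.31 to 0.05 (0.05 in both FPKM fits) and labelled KO from -0.26 to 0.03 (0.03 in both). Ggps1 labelled WT turned from -0.23 to 0.14 with total counts, 0.12 with log2(FPKM + 1) and 0.14 with log2(FPKM + 0.1). Labelled KO Ggps1 turned from -0.03 to 0.02 (stricter filter, DESeq2 size factors, Wald test, single-hyphen titles), 0.08 (title style), 0.26, 0.23 and 0.26 (total counts and FPKM at both pseudocounts), and ran from -0.14 to 0.12 with 1 library left out.

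Limits are that 3 libraries a group leave wide label intervals on day 3, such as 0.25 to 0.92 for Fdft1 and -0.15 to 0.90 for Mvd. No label difference of a member on day 3 passed the adjustment over all genes by edgeR. Nothing ties libraries to animals, and the Zmat1 counts do not follow the labels. The fit with only the groups compared gives no average over days, and the block within label was run between days only.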
